A study of Rattus norvegicus with 6 samples.

Results

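The 10 genes described here encode the main parts of the elastic fibre: elastin (Eln), fibrillin-1 (Fbn1), the fibulins fibulin-5 (Fbln5) and fibulin-4 (Efemp2), the crosslinking enzymes Lox and Loxl1, and the microfibril and interface proteins Emilin1, Mfap2, Mfap4 and Mfap5. They were taken by symbol from the 16770 genes of the count table, where all 10 were found. The symbols set the choice and no threshold on a measured value did, but earlier results of these data were known when the genes were chosen. The cells were grown from the proximal aorta of 3-month-old rats of 2 inbred strains, the normotensive Wistar Kyoto rat (WKY) and the spontaneously hypertensive rat (SHR). Pieces of aorta were laid with the luminal side down, and the cells that grew out were kept in the same endothelial medium with serum and growth supplement. The labels name no treatment or altered gene. Each strain had 3 RNA sequencing libraries, of which replicates 1 and 2 carry the batch label 1 and replicate 3 carries the batch label 2. Each strain is thus represented in batch 2 by 1 library. Separate animals or cultures are not stated for each library, so p-values measure only the spread between these libraries, which may be technical.

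An elastic fibre is an elastin core laid down on a scaffold of microfibrils. Fibrillin-1 forms the microfibril, and MAGP proteins (Mfap2 and Mfap5) sit on it. Tropoelastin, the soluble product of Eln, is brought to the scaffold by fibulin-4 and fibulin-5, and the lysyl oxidases then oxidise its lysines so that neighbouring molecules crosslink. In the aortic wall most elastin is made by smooth muscle cells, early in life, and the finished lamellae let the vessel recoil after each beat.

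Total counts lay between 18462032 and 19947286 per library. Levels are given as CPM, counts relative to the library total times the TMM factor of edgeR, and differences as log2 fold changes with their standard error (SE). In 1 library, 3 counts, the most that a count of 0 allows, equal 0.151 to 0.187 CPM. The label calls the cells endothelial. Of the endothelial markers, Cdh5 (at most 0.105 CPM), Tie1 (at most 0.052 CPM) and Nos3 (at most 0.303 CPM) were at or near this floor, and Pecam1 ran from 0.106 to 2.18 CPM. Others on the list were higher, with Flt1 at 7.03 to 79.3 CPM and Egfl7 at 6.39 to 27.2 CPM. Tek had 0.435 to 1.85 CPM in WKY and 4.72 to 9.38 CPM in SHR. Its fitted difference, SHR over WKY, was 3.00 (SE 0.63, edgeR adjusted p = 0.182), and DESeq2 called it, against 5.51% of all genes. That difference was -0.02 for Flt1, -0.23 for Egfl7 and 0.68 for Vwf, none of them called. Of 14 endothelial markers 11 were in the table and 4 passed the filter on low counts, and the summed level of the list was 25.7 to 99.3 CPM. The smooth muscle markers, all 10 in the table, summed to 825 to 1107 CPM in the batch 1 libraries, 9130 CPM in WKY replicate 3 and 2511 CPM in SHR replicate 3. The fibroblast markers, all 11 in the table, summed to 5805 to 16003 CPM in WKY and 12432 to 15434 CPM in SHR, with most of the sum from collagen genes. All 11 had a fitted strain difference above 0, from 0.059 for Pi16 upward (median 1.09). EdgeR called 1, Tcf21, against 0.254% of all genes in either direction, and DESeq2 called 6, against 5.51%. Tcf21 was at 0 to 0.124 CPM in WKY, below the floor. Of the 8 mesothelial markers, all in the table, the sum was 83.8 to 639 CPM in WKY and 383 to 1222 CPM in SHR. Of the 6 macrophage markers, all in the table, Ptprc, Adgre1 and Aif1 were at 0 counts in all 6 libraries. Csf1r was at most 0.582 CPM. Cd14 had 14.8 to 39.3 CPM and Cd68 had 3.48 to 28.02 CPM. The list summed to 28.9 to 67.5 CPM. In RNA from mixed cells, a change in the share of a cell type and a change of RNA per cell cannot be told apart.

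Elastin differed widely between the libraries of WKY and far less between those of SHR. Eln (gene identifier 25043) had 585 and 791 CPM in the batch 1 libraries of WKY and 9967 CPM in the batch 2 library. In SHR it had 1007 and 864 CPM in batch 1 and 357 CPM in batch 2. The batch 2 library of WKY was thus far above all others, and the batch 2 library of SHR was the lowest of the 6. The WKY mean was 3781 ± 5358 CPM and the SHR mean 743 ± 342 CPM (SD, n = 3 each), and the libraries overlapped. The fitted strain difference, SHR over WKY, was -0.91 on the log2 scale (SE 1.27, edgeR quasi-likelihood test with a batch term, adjusted p = 0.790). This direction rests on batch 2. Within batch 1 the fitted difference was 0.44 (SE 0.22, adjusted p = 0.555). Leaving out the batch 2 library of either strain gave 0.45. This is no separate result, because the batch term then absorbs the other batch 2 library.

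The batch difference of Eln ran in opposite directions in the strains, and the fit over both strains gave 2.12 (SE 1.41, edgeR adjusted p = 0.274). In WKY the batch 2 library was 14.5-fold above the mean of batch 1, and in SHR it was 2.62-fold below. With SHR replicate 3 left out, the batch difference that remained was that of WKY, 3.86 on the log2 scale (SE 0.28, edgeR adjusted p = 0.00466). With WKY replicate 3 left out it was that of SHR, -1.40 (SE 0.29, edgeR adjusted p = 0.0241). Each of these compares 1 library with 2. Here and below, in the fits within a strain and in the interaction fit, a batch 2 group is a single library. It was taken to vary as the batch 1 libraries do, so SE and p-values hold no spread of batch 2. The strain by batch interaction, the test of the difference between them, was -5.25 (SE 0.44) with an unadjusted p of 6.9e-05 and did not pass edgeR over all genes (adjusted p = 0.0964). It passed the DESeq2 Wald test (adjusted p = 1.58e-32) but not limma-voom (adjusted p = 0.185). With 1 batch 1 library left out, its size in edgeR stayed between -5.49 and -5.06. In those fits the spread came from the 1 batch 1 pair that was left. Whether the interaction passed differed with the library left out. Of the 9 smooth muscle markers tested, the interaction was below 0 in 8 and above 0 in Des (median -1.29). EdgeR called 0 of them, against 0% of all genes. Before adjustment 1 passed above 0 and 3 below, against 5.44% and 7.22% of all genes. DESeq2 called Acta2 and Tagln below 0 and Des above it, against 3.65% of all genes in either direction. Acta2, smooth muscle actin, had 93.5 to 184 CPM in batch 1, 3630 CPM in WKY replicate 3 and 731 CPM in SHR replicate 3. Tagln, the contractile gene of transgelin, had 498 to 578 CPM in batch 1 and 3043 CPM in WKY replicate 3, against 480 CPM in SHR replicate 3. Des, the muscle filament desmin, had 3.11 CPM in WKY replicate 3 and 87.7 CPM in SHR replicate 3, against 1.68 to 21.8 CPM in batch 1. In SHR replicate 3, where Eln was lowest, Tagln alone of the smooth muscle list was below its batch 1 levels. Acta2, Myh11, Cnn1, Smtn, Lmod1, Myocd, Des, Mylk and Synpo2 were above theirs. Of the 4 pericyte markers tested, the interaction was above 0 in 1 (median -2.08). The pericyte list summed to 772 to 997 CPM in batch 1, 3077 CPM in WKY replicate 3 and 635 CPM in SHR replicate 3. Of the 11 fibroblast markers, the interaction was above 0 in 8 (median 0.53). EdgeR called 0 in either list, and DESeq2 called Pdgfrb and Col1a1 below 0 (3.65% of all genes). The part of these marker genes in the elastin result was not tested.

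Fibrillin-1, the backbone of the microfibril, followed elastin in direction at a smaller size. Fbn1 had 154, 126 and 373 CPM in WKY replicates 1 to 3 and 170.1, 124 and 91.5 CPM in SHR replicates 1 to 3. WKY replicate 3 was again the highest and SHR replicate 3 the lowest library. The strain difference was -0.60 (SE 0.49, edgeR adjusted p = 0.636), and within batch 1 it was 0.07. Within WKY the batch 2 library was higher by 1.41 on the log2 scale (SE 0.26, edgeR adjusted p = 0.0178), and within SHR the difference was -0.69 (SE 0.28, adjusted p = 0.114). The interaction was -2.09 (SE 0.39, edgeR unadjusted p = 0.00285, adjusted p = 0.202), and DESeq2 called it (adjusted p = 0.000239).

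**Figure D1:**
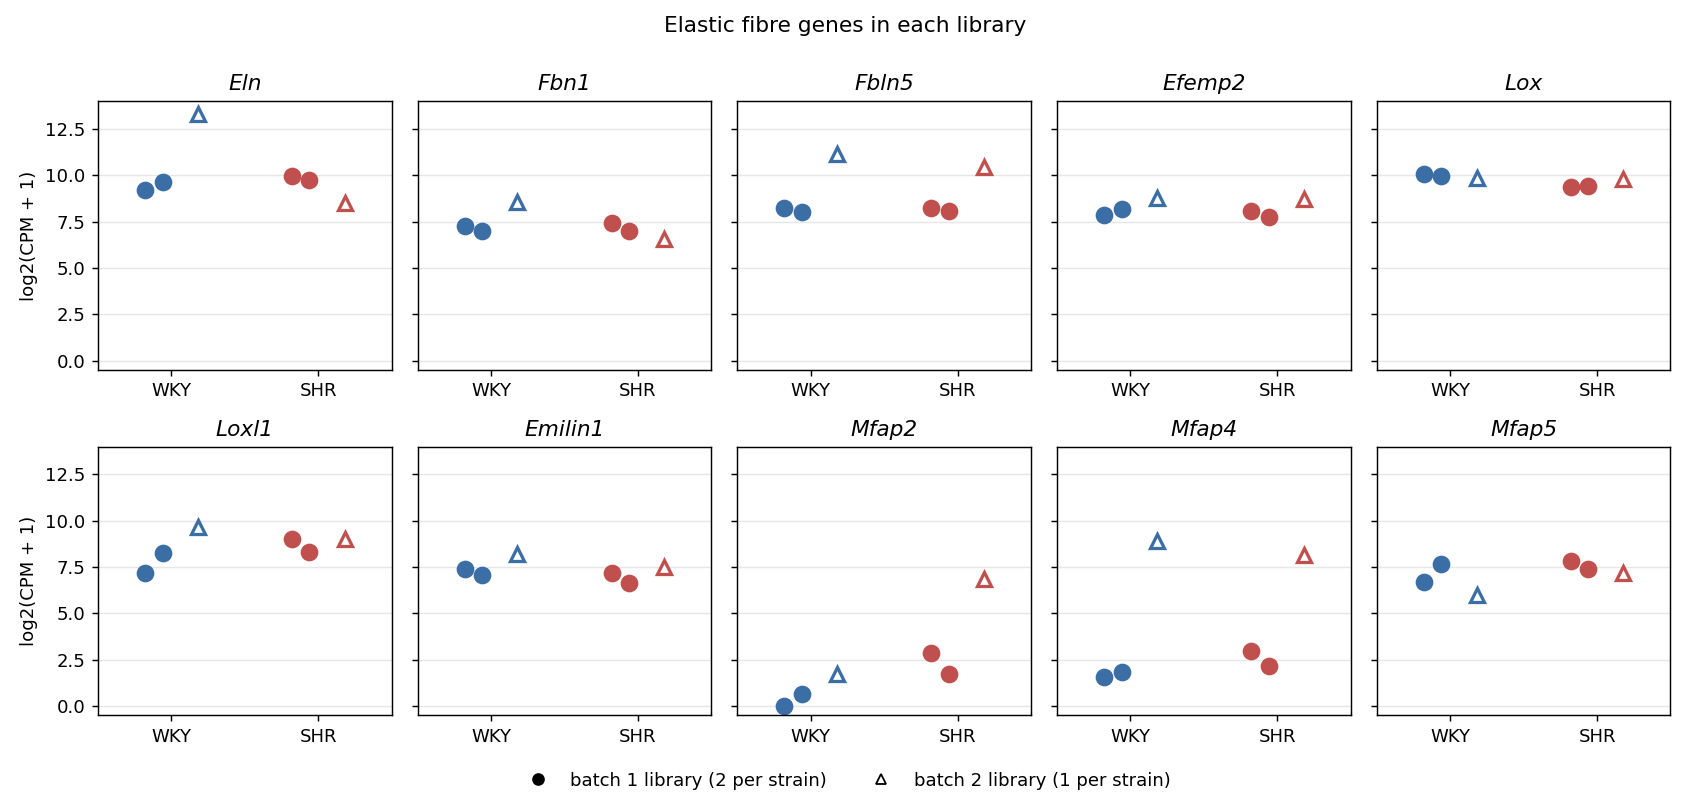
Level of each of the 10 genes as log2(CPM + 1) (vertical axis) in the WKY and SHR libraries, with filled circles for batch 1 and open triangles for batch 2. In the Eln panel the batch 2 libraries lie at opposite ends (9967 and 357 CPM), while in the Fbln5 and Mfap4 panels both lie above all batch 1 libraries.

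Both fibulins rose in batch 2, and neither strain difference passed the test. Fbln5 binds tropoelastin and cell surface integrins. It had 303 and 255 CPM in batch 1 of WKY, 299.7 and 264 CPM in batch 1 of SHR, and 2301 and 1378 CPM in WKY replicate 3 and SHR replicate 3. Batch 2 was higher by 2.68 (SE 0.23, edgeR adjusted p = 0.00144), and the call stood without any 1 library and under each alternative tried. The rise was 8.25-fold in WKY and 4.89-fold in SHR, and the interaction did not pass (-0.75, SE 0.33, edgeR adjusted p = 0.427). The strain difference of Fbln5 was -0.24 (SE 0.23, adjusted p = 0.697). Efemp2 encodes fibulin-4, which tethers lysyl oxidase to tropoelastin. It had 210.4 to 286 CPM in batch 1, 442 CPM in WKY replicate 3 and 413 CPM in SHR replicate 3. The difference was 1.72-fold in WKY and 1.71-fold in SHR, or 0.78 on the log2 scale (SE 0.18, edgeR adjusted p = 0.0190). That call was lost without WKY replicate 3 (adjusted p = 0.0761), SHR replicate 2 (0.0596) or SHR replicate 3 (0.0685). The strain difference of Efemp2 was -0.09 (SE 0.18, adjusted p = 0.851).

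Start site sequences were matched by symbol for 6 of the 10 genes in RefSeq (GRCr8, a Brown Norway genome, so bases that differ in WKY or SHR are not seen). Fbln5 and Mfap5 are shown because they lay on opposite sides of 0 between batches. The stretch of Fbln5 runs from 250 to 142 bases before its listed start site, outside the bounds of the gene (chr6:126742848-126742956, minus strand). That of Mfap5 covers the 250 bases before its start site (chr4:157399669-157399918, plus strand). Capitals mark the GC box on either strand. Both are 5′ to 3′ on the strand of the gene.
Fbln5: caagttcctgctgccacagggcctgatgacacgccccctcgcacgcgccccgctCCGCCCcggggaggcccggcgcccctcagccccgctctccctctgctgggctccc
Mfap5: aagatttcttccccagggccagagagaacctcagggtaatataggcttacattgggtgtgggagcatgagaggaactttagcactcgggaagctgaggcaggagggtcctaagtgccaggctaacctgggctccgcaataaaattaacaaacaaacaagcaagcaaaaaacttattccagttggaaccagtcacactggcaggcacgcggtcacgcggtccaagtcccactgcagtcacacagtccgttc
A set of 3 short motifs was searched on both strands of the 300 bases around each start site, from 250 bases before it to 50 after, and none of the motifs contains another. TATAAA, the TATA box, was in 0 of the 6 windows and in 14.2% of 33469 RefSeq windows of that length. The GC box, GGGCGG, was in 3 of the 6 (Fbln5, Efemp2 and Mfap2) and in 33.1% of all. CAGAC, a Smad-type element, was in 4 of the 6 (Fbn1, Fbln5, Loxl1 and Mfap2) and in 50.1% of all. The window of Mfap5 held 0 matches of any of these. A match describes letters and not a bound site.

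The crosslinking enzymes passed neither the strain nor the batch test in edgeR. Lox oxidises lysines of elastin and collagen. It had 1077, 1004 and 907 CPM in WKY and 655, 694 and 886 CPM in SHR, so every WKY library lay above every SHR library. The means were 996 ± 85.1 CPM for WKY and 745 ± 124 CPM for SHR (SD, n = 3 each), and by exact permutation (two-sided) p was 0.1, below which 3 libraries against 3 cannot go. The fitted difference was -0.43 (SE 0.20, edgeR unadjusted p = 0.0749, adjusted p = 0.430). Most of the gap lay in batch 1, where the difference was -0.63 (SE 0.16, edgeR adjusted p = 0.313), against -0.03 for the ratio of the single batch 2 libraries. Lox showed the narrowest range of the 10 genes, 1.64-fold from lowest to highest library. Loxl1, which is directed to elastin and is needed for fibre renewal, had 142, 300.5 and 808 CPM in WKY and 517, 318 and 525 CPM in SHR. Its strain difference was 0.41 (SE 0.48, edgeR adjusted p = 0.740) and turned to -0.01 without WKY replicate 1, the lowest library. The batch difference of Loxl1 was 1.17 (SE 0.49, edgeR adjusted p = 0.108), and DESeq2 called it (1.21, adjusted p = 0.0273). Estimated counts of Loxl1 were not whole in all 6 libraries, so some of its reads may be shared with another gene and its level is less certain. The same held for Mfap4 in 4 libraries and for 0 of the other 8 genes.

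The 2 MAGP genes, which encode related small microfibril proteins, had unlike patterns. Mfap2 had 0, 0.58 and 2.30 CPM in WKY (0, 11 and 37 counts) and 6.35, 2.35 and 117 CPM in SHR. Every SHR library was above every WKY library, although SHR replicate 2 and WKY replicate 3 were almost level. As fitted, SHR was 27.7-fold higher, a log2 fold change of 4.79 (SE 0.95, edgeR unadjusted p = 0.00353, adjusted p = 0.182). Of the 10 genes Mfap2 alone had an unadjusted strain p below 0.05, and it did not pass over all genes. DESeq2 called it (4.51, SE 1.39, adjusted p = 0.0279), and limma-voom did not (5.47, adjusted p = 0.0756). With any 1 library left out it lay between 3.89 and 5.93, with edgeR adjusted p between 0.0903 and 0.5003. The WKY level rests on few counts, so the size of the fold is uncertain. Mfap2 also rose in batch 2 (4.20, SE 0.84, edgeR adjusted p = 0.0140), and this call was lost without SHR replicate 3 (2.97, adjusted p = 0.195) and with no strain term (adjusted p = 0.0729). Lrrn4 and Bnc1, markers of mesothelium, were also highest in SHR replicate 3, with 103 and 25.1 CPM against at most 5.71 and 1.48 CPM elsewhere. The other mesothelial markers were highest there too. In SHR replicate 1, where Mfap2 had 6.35 CPM, Lrrn4 and Bnc1 were at 0 CPM. Msln, of the same list, had 758 CPM in SHR replicate 3 but 620 CPM in WKY replicate 1, where Mfap2 had 0 counts. The part of these markers in the level of Mfap2 was not tested. Mfap5 had 104, 202 and 63.1 CPM in WKY and 229, 169 and 144 CPM in SHR. Its strain difference was 0.65 (SE 0.33, edgeR adjusted p = 0.471). Mfap5 was the only one of the 10 with a fitted batch difference below 0 (-0.85, SE 0.36, edgeR unadjusted p = 0.0583, adjusted p = 0.106), and in each strain its batch 2 library was the lowest.

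Mfap4 and Emilin1 are glycoproteins of the fibre surface. Mfap4 binds tropoelastin and fibrillin-1. It had 1.97 and 2.64 CPM in batch 1 of WKY, 6.88 and 3.42 CPM in batch 1 of SHR, and 476 and 285 CPM in the batch 2 libraries of WKY and SHR. Both batch 2 libraries stood far above the other 4, by 206-fold over the batch 1 mean of WKY and 55.3-fold over that of SHR. The batch difference was 6.80 (SE 0.55, edgeR adjusted p = 0.00160), larger in size than that of 99.8% of all genes tested, and it was called without any 1 library. The strain difference of Mfap4 was 0.44 (SE 0.51, edgeR adjusted p = 0.743), with SHR higher in batch 1 and WKY higher in batch 2. Its interaction was -1.90 (SE 0.63, edgeR unadjusted p = 0.0325, adjusted p = 0.355). Emilin1 lies at the interface of elastin and microfibrils. It had 170.3, 134 and 296 CPM in WKY and 144, 97.3 and 179 CPM in SHR. Batch 2 was higher by 0.76 (SE 0.22, edgeR adjusted p = 0.0368). The call was lost without WKY replicate 1 (adjusted p = 0.0663), 2 (0.0947) or 3 (0.210), without SHR replicate 2 (0.0951) or 3 (0.0626), and with total counts as the only scaling (0.0675) or no strain term (0.0649). Its strain difference was -0.47 (SE 0.21, edgeR adjusted p = 0.430), and this direction was kept in all 16 alternatives.

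Between strains, then, 0 of the 10 genes were called by edgeR, against 0.254% of 12614 genes tested (32 genes, or 6 with the replicate block). All 10 passed the filter on low counts. At an unadjusted p below 0.05 there was 1, Mfap2, higher in SHR, against 13.3% of all genes in either direction, 6.1% higher and 7.18% lower. DESeq2 called 1, Mfap2, against 5.51% of all genes, and limma-voom 0, against 0.309%. For 2 of the 10, Lox and Mfap2, all libraries of one strain lay above those of the other, against 9.81% of all genes. The median log2 fold change of the 10 was -0.16, with 4 positive, against a median of -0.019 over all genes.

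**Figure D2:**
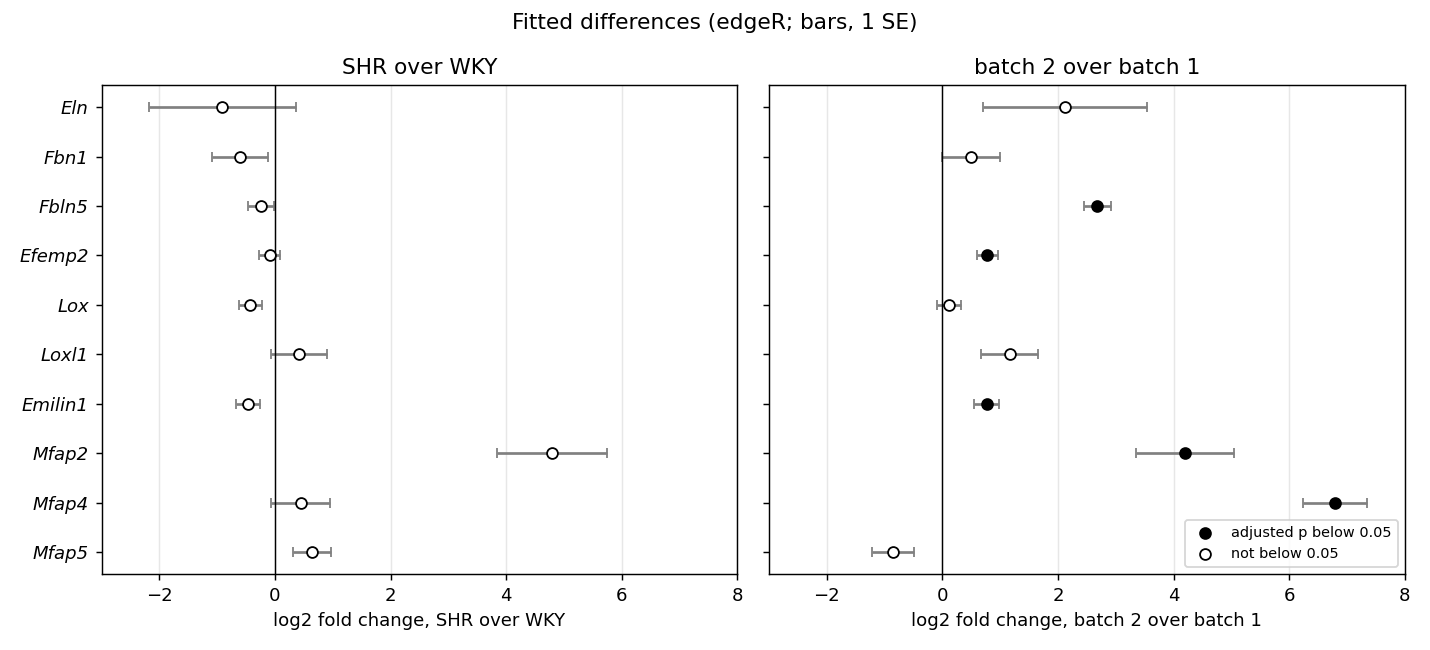
Fitted log2 fold changes (horizontal axes) of the 10 genes for SHR over WKY and for batch 2 over batch 1, with bars of 1 SE. Filled points passed an adjusted p of 0.05. No strain difference is filled, and Fbln5, Efemp2, Emilin1, Mfap2 and Mfap4 are filled for batch.

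Between batches 5 of the 10 rose (Fbln5, Efemp2, Emilin1, Mfap2 and Mfap4) and 0 fell by edgeR. Of all genes tested, 21% were called higher in batch 2 and 22.5% lower, together 43.5%. At an unadjusted p below 0.05 the shares of all genes were 26.1% higher and 27% lower. Limma-voom called the same 5, against 45.2% of all genes in either direction, and DESeq2 these and Loxl1, against 51%. The libraries of the batches did not overlap in 5 of the 10 (Fbln5, Efemp2, Loxl1, Emilin1 and Mfap4), all higher in batch 2. That compares with 57.6% of all genes in either direction and 27.2% higher. For each of Fbln5, Efemp2, Emilin1 and Mfap4 exact permutation of 4 libraries against 2 (two-sided) gave 0.0667, the lowest p this design can reach. The median batch difference of the 10 was 0.97, with 9 positive, against -0.0015 over all genes. With total counts as the only scaling the median over all genes moved by -0.18 and the share of calls that were higher went from 48.3% to 36.9%. Under that scaling Lox went from 0.11 to -0.07, no further than the shift of all genes. All 8 tested proliferation genes of the marker list fell in batch 2 and 7 of 9 tested smooth muscle genes rose, so the batches also differed in these. Their part in the batch difference of the 10 genes was not tested.

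**Figure D3:**
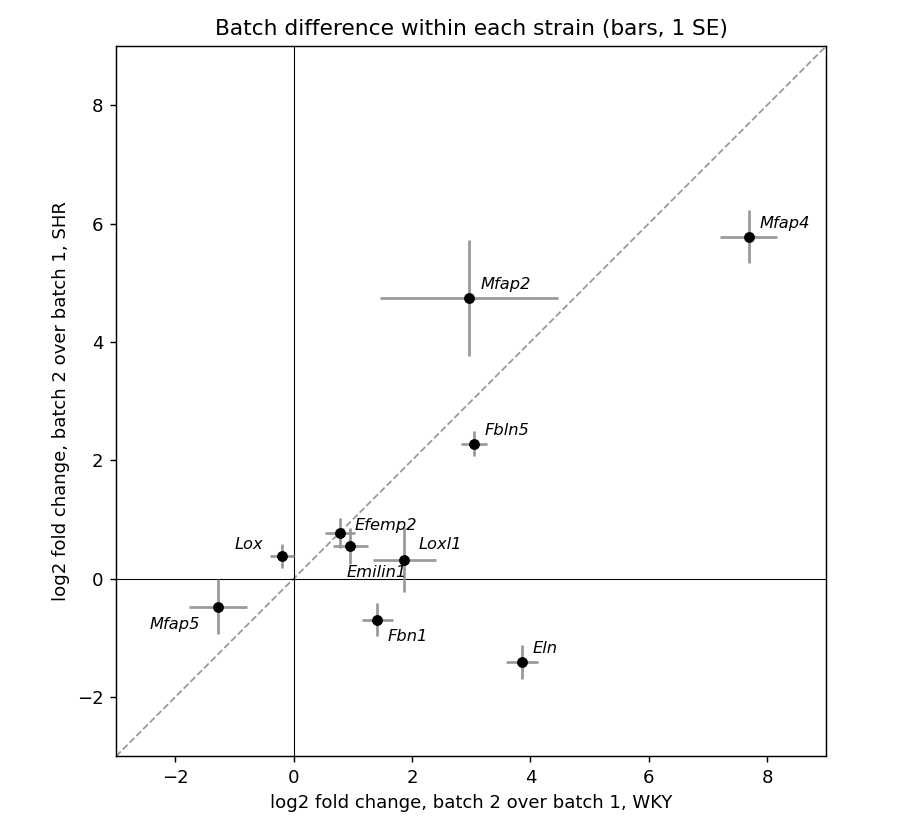
Log2 fold change of batch 2 over batch 1 within WKY (horizontal axis) and within SHR (vertical axis) for the 10 genes, each from a fit without the batch 2 library of the other strain, with bars of 1 SE. Points on the dashed line would differ equally in both strains. Eln (3.86 and -1.40) lies farthest below it.

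Within a strain, 4 of the 10 were called between batches in each. In WKY these were Eln, Fbn1, Fbln5 and Mfap4, all higher in batch 2 (15.4% of all genes were called higher in that fit). In SHR Fbln5, Mfap2 and Mfap4 were higher (13.5% of all genes) and Eln was lower (17.4%). In 3 of the 10 genes the batch 2 library lay above both batch 1 libraries in one strain and below both in the other, against 11.6% of all genes. Eln and Fbn1 rose in WKY replicate 3 and were lowest in SHR replicate 3, a pattern found in 5.37% of all genes, while Lox was lowest of its strain in WKY replicate 3 and highest in SHR replicate 3. The interaction was called for 0 of the 10 by edgeR, against 0% of all genes, and for 0 by limma-voom (0% of all genes). Eln, Fbn1 and Mfap4 had an unadjusted p below 0.05 in edgeR, all with a value below 0, against 12.7% of all genes in either direction, 5.44% above 0 and 7.22% below 0. DESeq2 called Eln and Fbn1 (3.65% of all genes).

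Ratios within a library do not depend on how libraries are scaled. Each is given as the log2 ratio of counts minus its mean over the 6 libraries. Relative to elastin, Lox was at -3.15 in WKY replicate 3 and at 1.62 in SHR replicate 3, with the batch 1 libraries between -0.31 and 1.19. Fbn1 over Eln was -1.97 in WKY replicate 3 and 0.81 in SHR replicate 3. Elastin thus changed more than its crosslinking enzyme and its scaffold in the first of these libraries. Fbln5 over Efemp2 was 1.57 and 0.93 in the batch 2 libraries of WKY and SHR and below 0 in all 4 batch 1 libraries, so the 2 fibulins rose unequally. Loxl1 over Lox was lowest in WKY replicate 1 (-1.75) and WKY replicate 2 (-0.57) and above 0 in the other 4 libraries. Mfap2 over Mfap5 ran from -5.88 in WKY replicate 1, where Mfap2 had 0 counts and 0.5 was added to each count, to 5.83 in SHR replicate 3.

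**Figure D4:**
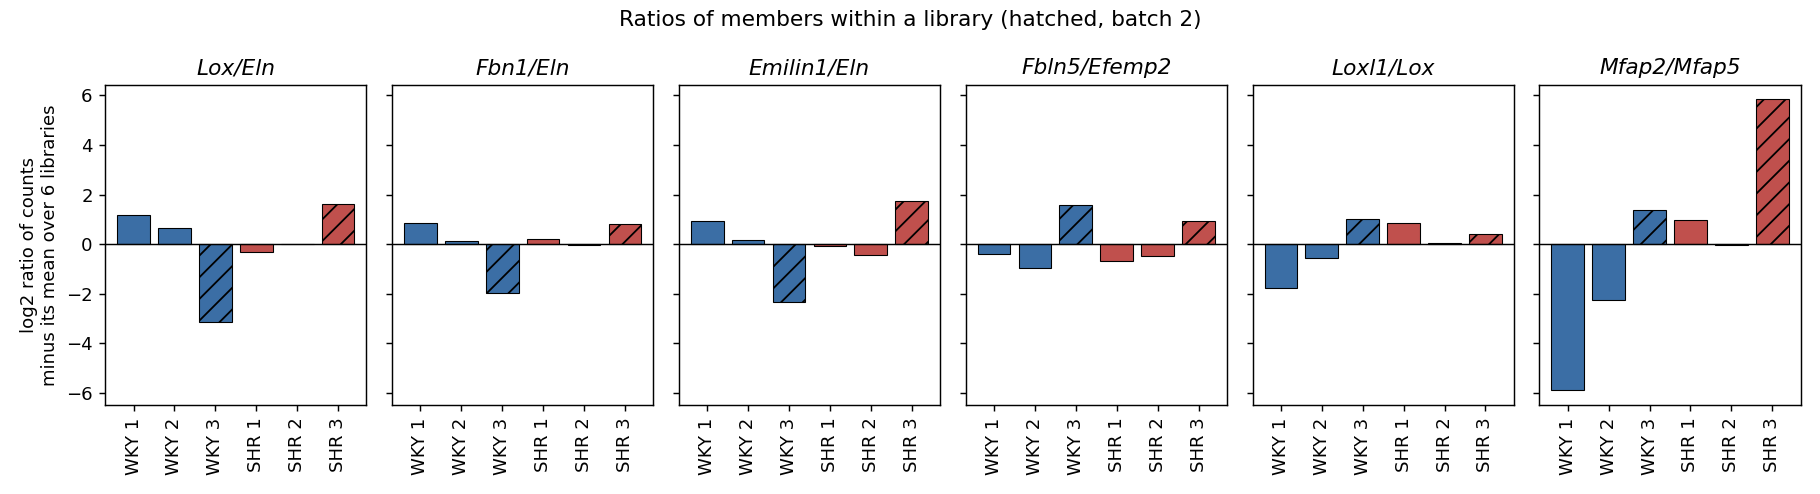
Log2 ratio of the counts of 2 genes in each library minus the mean of that ratio over the 6 libraries (vertical axis), with WKY in blue, SHR in red and batch 2 hatched. Lox over Eln is lowest in WKY replicate 3 (-3.15) and highest in SHR replicate 3 (1.62), and Fbln5 over Efemp2 is above 0 in both batch 2 libraries only.

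The wider elastic fibre pathway was described with 8 lists of 53 further genes, of which 49 were in the table and 38 were tested. By strain, 0 of the 38 were called by edgeR (0.254% of all genes), and limma-voom called 0. Without adjustment for the number of genes, 3 passed as higher in SHR and 7 as lower (6.1% and 7.18% of all genes). DESeq2 called Postn, Mmp14 and Dcn (3) higher and Ltbp2, Fn1, Adamts6 and Neu1 (4) lower, against 5.51% of all genes in either direction. The median log2 fold change of the 38 was -0.15. Without WKY replicate 2 edgeR called 2 lower, Ltbp2 and Neu1 (adjusted p = 0.0411 each). That fit also called more genes over the whole table, 65 against 32 with all libraries. Ltbp2, a fibrillin-binding relative of the latent TGF-beta binding proteins, had 1264, 522 and 2294 CPM in WKY and 265, 217 and 355 CPM in SHR, without overlap (-2.16, SE 0.40, edgeR adjusted p = 0.145). Neu1, the sialidase of the elastin receptor complex, had 92.2, 49.9 and 210.4 CPM in WKY and 23.1, 16.7 and 35.3 CPM in SHR (-2.08, SE 0.32, edgeR adjusted p = 0.103). Its partner Glb1 overlapped between strains (WKY 99.8 ± 52.7 CPM, SHR 126 ± 55.6 CPM, SD, n = 3 each).

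Of the fibrillin-binding ADAMTS proteins, Adamts6 had 37.2 to 44.1 CPM in WKY and 13.6 to 17.9 CPM in SHR, without overlap, the smallest adjusted p of the 38 (-1.32, SE 0.17, edgeR adjusted p = 0.0719). Fn1, the fibronectin on which lysyl oxidase is matured, had 4962, 1703 and 10611 CPM in WKY and 1482, 1176 and 1977 CPM in SHR (-1.69, SE 0.49, edgeR adjusted p = 0.272). Postn, a matricellular protein that aids lysyl oxidase maturation, averaged 5.27 ± 5.13 CPM over the WKY libraries and 24.1 ± 22.5 CPM over those of SHR (SD, n = 3 each; 2.17, SE 0.66, edgeR adjusted p = 0.293). The membrane protease Mmp14 had 367 to 516 CPM in WKY and 525 to 1004 CPM in SHR (0.67, SE 0.18, edgeR adjusted p = 0.243). Dcn, the small proteoglycan decorin, had 61.5, 26.9 and 8.39 CPM in WKY and 386, 245 and 1307 CPM in SHR (4.05, SE 1.14, edgeR adjusted p = 0.272). Fbln2, a fibulin related to Fbln5, had 768, 420 and 2619 CPM in WKY and 358, 519 and 552 CPM in SHR, with overlap (-1.02, SE 0.48, edgeR adjusted p = 0.446). With 1 library left out the values of these genes kept their sign, but Dcn ran from 2.84 to 5.01 and Postn from 1.71 to 3.12. Fbln2 went to -0.44 without the batch 2 library of either strain, which leaves only batch 1 to compare the strains. The fibroblast markers were all above 0 between strains, as were Dcn, Postn and Mmp14, though Col1a1 (0.096) and Pi16 (0.059) were near 0. The part of the fibroblast markers in these values was not tested. The remaining named genes by the same rule, Ltbp4, Fbln7, Emilin2, Adamtsl3, Mmp2 and Vcan, overlapped between strains.

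By batch, edgeR called 12 of the 38 higher and 4 lower (21% and 22.5% of all genes), with a median of 0.71. Of the 4 called among 7 fibrillin-binding ADAMTS genes (Adamts10, Adamtsl3, Adamtsl4 and Thsd4), all were higher in batch 2. The proteases Ctsk and Ctsl, cathepsins that can cut elastin, were lower in batch 2, and Mmp14 was higher (0.64, SE 0.18, edgeR adjusted p = 0.0361), a call lost without any 1 library except WKY replicate 3 (adjusted p from 0.0686 to 0.164). Loxl2 and Tll1 were lower, and Bmp1, the protease that activates pro-lysyl oxidase, was higher. With 1 batch 1 library left out the counts were 9 to 14 higher and 1 to 4 lower. In the same fits the calls over all genes fell from 5491 to between 4111 and 4807. Among the 38 and among all genes, calls were fewest without WKY replicate 3, a fit with 1 library in batch 2.

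The genes with the pattern most like a member were found by the root mean square difference of log2(CPM + 1), each gene centred on its own mean, over the 6 libraries. For Eln, among 909 genes with a like spread, these were Klhl31 (0.49), Apba1 (0.67), Cd180 (0.69) and Wisp2 (0.76). Klhl31 had 35.1 CPM in WKY replicate 3 and 0.88 to 4.02 CPM elsewhere. Wisp2 had 146 CPM in WKY replicate 3 and 13.9 to 37.8 CPM elsewhere. For Fbln5, among 1300 genes, they were Rwdd2a (0.15), Zfp362 (0.16), Hist2h2aa3 (0.18) and Setbp1 (0.19). For Mfap4, among 59 genes, the nearest was Myh11 (1.12), the smooth muscle myosin heavy chain, followed by Zfp575 (1.16), Cpne1 (1.35) and Mepce (1.38). Myh11 had 2.57 to 6.397 CPM in batch 1, 345 CPM in WKY replicate 3 and 49.2 CPM in SHR replicate 3.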

How the data were processed

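The authors deposited estimated counts per gene, not normalized, and a table of log2 values. The build Rnor_6.0 and the tools RSEM 1.2.28, Bowtie2 2.4.4 and DESeq2 1.42.1 are named, without roles, in the submitters' processing notes. Strand and annotation are not given in the sources used here. Counts were rounded, filtered with filterByExpr by strain (12614 genes) and scaled by TMM (factors 0.873 to 1.07). Strain, batch and their interaction were tested in edgeR 4.0.16 under R 4.3.3 (glmQLFTest on a robust quasi-likelihood fit, 3 residual degrees of freedom, 2 for the interaction), two-sided, with Benjamini-Hochberg adjustment over all genes tested and calls at an adjusted p below 0.05. DESeq2 1.42.0 and limma 3.58.1 (voom) were alternatives, with other scalings and filters, no batch term, a replicate block, batch 1 alone and each library left out. SEs were computed from the fold change and F. The code was tested on simulated data. The 10 genes, the lists and the naming rule (all 10, and the 2 of each pathway list with the smallest p by strain, besides the 4 nearest patterns for Eln, Fbln5 and Mfap4) were chosen with earlier results of these data known. Deviations of same-numbered libraries from their strain means correlated at 0.303, 0.400 and 0.655 across genes. Same-numbered libraries share a batch label, and its part in these values was not tested. Within batch 1 the crossed numbers correlated higher (0.484 and 0.493). Counts of any 2 libraries differed beyond sampling noise (chi-square per gene 46.2 to 473). Floors and depth cover counting error only. The RefSeq start site table (GRCr8) was used for sequences alone.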

Additional observations from a re-analysis of the deposited data

Results flagged for a closer look

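In 3 genes the batch 2 library lay on opposite sides of the batch 1 libraries in the strains, so that the difference between SHR and WKY differed between batches. For Eln the strain by batch interaction was -5.25 on the log2 scale (SE 0.44, edgeR adjusted p = 0.0964), with 9967 CPM in WKY replicate 3 and 357 CPM in SHR replicate 3. For Fbn1 it was -2.09 (SE 0.39, edgeR adjusted p = 0.202), with 373 and 91.5 CPM in the same libraries. For Lox it was 0.59 (SE 0.29, edgeR adjusted p = 0.471), with 907 and 886 CPM there against 655 to 1077 CPM in batch 1. This pattern was present in 11.6% of all genes tested, and edgeR called the interaction for none of the 3. Both batch 2 groups are single libraries, so strain and library cannot be told apart within batch 2. The SE and p-values of the interaction rest on the spread of the batch 1 libraries.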

How the results depend on the processing

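Across all genes the strain calls numbered 32, and 695 with DESeq2, 2 without a batch term, 6 with the replicate block and 0 to 65 with 1 library left out. With limma on the deposited log2 values, an alternative chosen after seeing the data, they numbered 4. Of the 10 genes 0 were called, and 1 with DESeq2. The replicate block changed no call of the 10. Between batches 5 were called, 3 without a strain term and 3 to 5 with 1 library left out. The interaction went from 0 calls to 451 with DESeq2 (2 of the 10) and to 0 to 248 (0 to 1 of the 10) with a batch 1 library left out. Strain differences that changed sign, none of them called, were Eln (0.44), Fbn1 (0.066) and Fbln5 (0.012) within batch 1, and Mfap4 with voom (-0.024) or without a batch term (-0.70). With 1 library left out they ran from -2.11 to 0.45 for Eln, -0.95 to 0.071 for Fbn1, -0.38 to 0.017 for Fbln5, -0.19 to 0.0036 for Efemp2, -0.012 to 0.92 for Loxl1 and -0.019 to 1.16 for Mfap4. Batch differences that changed sign were Lox with total counts (-0.070) and, with 1 library left out, Lox (-0.20 to 0.38), Eln (-1.40 to 3.86) and Fbn1 (-0.69 to 1.41). The interaction of Efemp2 ran from -0.19 to 0.23 and that of Mfap2 from -3.70 to 2.77. The cause of these changes was not tested. Of 160 strain values of the 10 genes under alternatives, 144 kept direction and side of the threshold, as did 111 of 130 for batch and 73 of 80 for the interaction. Depth limits Mfap2 most, with 0 to 37 counts in WKY.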

Other observations

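In the log2 values the authors deposited, the mean of the batch 1 libraries equalled the mean of the batch 2 libraries in every gene (largest difference 7.5e-09), so a batch difference cannot be seen there. Mfap4, which ran from 1.97 to 476 CPM in the counts, lay between 9.13 and 9.93 in those values. Eln still differed between the batch 2 libraries, with 16.2 in WKY replicate 3 and 12.9 in SHR replicate 3 against 14.2 to 14.7 in the batch 1 libraries. The difference there, SHR minus WKY, was -3.29, smaller in size than the -4.81 of the CPM. Its strain means there were 14.96 ± 1.05 for WKY and 14.1 ± 1.04 for SHR (SD, n = 3 each). Mfap2 had 5.41 ± 0.87 for WKY and 7.996 ± 0.91 for SHR (SD, n = 3 each), a difference of 2.58, against 4.79 in the fit of the counts. The spread of the deposited values holds no difference between batches, unlike that of the CPM.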
